A study of Rattus norvegicus with 10 samples.

Results

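The sinusoidal endothelial scavenger and vascular markers are a set of 10 genes named for the cells that line the liver sinusoids: Stab1, Stab2, Kdr, Mrc1, Lyve1, Pecam1, Cdh5, Tek, Flt1 and Eng. They were found by gene symbol in a table of 32883 genes, where 9 of the 10 names matched. Pecam1 is not analysed here. All 9 matched markers were among the 11083 genes kept for testing, those that reached 1 TPM in 5 or more of the 10 samples. TPM is a unit that divides reads by gene length and scales each sample to the same total.

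The study compared liver RNA of the Eisai hyperbilirubinemic rat (EHBR) with that of the Sprague-Dawley (SD) rat. The EHBR, a mutant derived from SD stock, lacks Mrp2, the bile canalicular efflux pump encoded by Abcc2, so the loss of Mrp2 and other strain differences cannot be told apart. The rats of both groups were male and 5 weeks old, the labels name no treatment, and each group had 5 samples, numbered 1 to 5. Neither the breeding of the rats nor whether each sample was a separate animal is stated in the labels, so the p-values describe spread among samples, part of which may be technical. Abcc2 stood at 60.0 to 271 TPM in the SD samples and at 10.1 to 17.6 TPM in the EHBR samples. The samples held 13.8 to 19.6 M reads on genes. In both strains, samples 4 and 5 stood apart from samples 1 to 3, so values within each of these sets are given for the markers and for some other genes. Mitochondrial transcripts took 13.0% to 17.4% of TPM in SD and 14.1% to 16.2% in EHBR samples.

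Liver sinusoidal endothelial cells form a fenestrated lining without a continuous basement membrane and clear waste molecules from blood by endocytosis. Their scavenger receptors take up hyaluronan, modified lipoproteins, collagen fragments and glycoproteins. They also carry receptors for vascular endothelial growth factor (VEGF), angiopoietins and bone morphogenetic proteins (BMPs), which act in endothelial growth and identity, and the junction protein VE-cadherin.

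Stab1, Stab2, Mrc1 and Kdr were higher in EHBR liver, and no marker was lower (limma, Benjamini-Hochberg adjustment over all kept genes, threshold 0.05). That is 4 of 9 markers, against 3.82% of kept genes called higher and 1.63% called lower. The mean level of Mrc1 in EHBR was 2.70 times that in SD, and the ratios were 2.28 for Stab1, 2.24 for Stab2 and 1.64 for Kdr. All 9 markers had a higher mean TPM in EHBR. The median kept gene was also higher, by 0.15 on the log2 scale, and by 0.22 among kept genes in the markers' length range. Eng, at a ratio of 1.13, and Tek, at 1.32, were among those not called. Eng turned below 0 on the log2 scale after median centring or removal of a length trend. In 6 of 9 markers all 5 EHBR samples lay above all 5 SD samples, which held for 6.45% of kept genes. Of the 4 calls, those of Stab1 and Kdr were lost after median centring and that of Mrc1 alone was kept with the length trend removed. In bulk liver, more endothelial cells and more RNA of these genes per cell cannot be told apart.

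**Figure D1:**
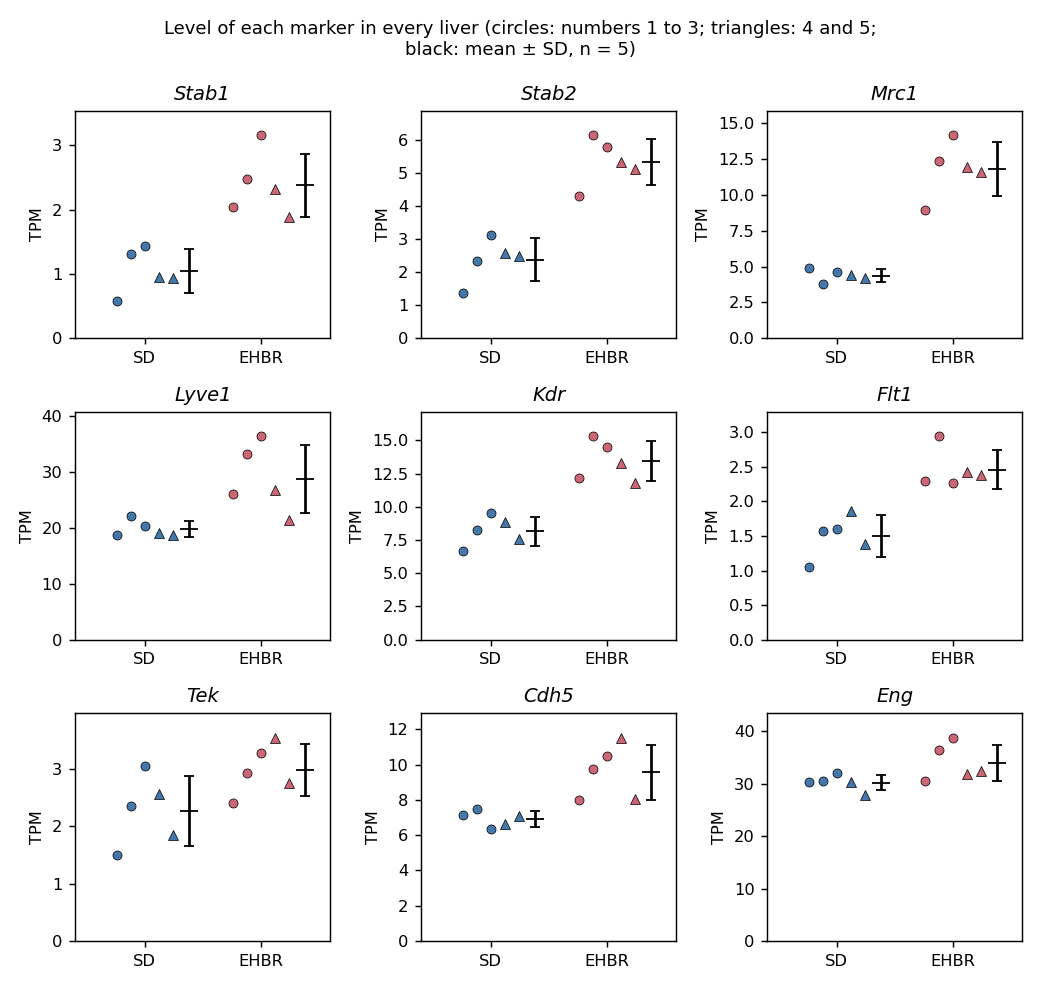
Level in TPM of each of the 9 markers in every sample, SD in blue and EHBR in red, with circles for numbers 1 to 3, triangles for 4 and 5, and black bars for the mean ± SD (n = 5). The strains are fully separated for Stab1, Stab2, Mrc1, Kdr, Flt1 and Cdh5 and overlap for Lyve1, Tek and Eng.

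Among the scavenger receptors, Mrc1 (ENSRNOG00000018251, rn6 chr17:81352700-81433743, plus strand) encodes the mannose receptor CD206, which takes up glycoproteins and collagen fragments. Its level was 4.92, 3.77, 4.61, 4.38 and 4.17 TPM in SD samples 1 to 5. In EHBR samples 1 to 5 it was 8.94, 12.3, 14.1, 11.9 and 11.6 TPM. The lowest EHBR sample was well above the highest SD sample. The means were 4.37 ± 0.436 and 11.8 ± 1.87 TPM (SD, n = 5 each). Tests used the log2(TPM + 1) scale, which understates the change of low genes, except where another unit or scale is named. On it the Mrc1 difference was 1.24 (SE 0.13, limma adjusted p = 0.000365). Mrc1 had the largest difference of the 9 markers, and 211 to 810 reads lay behind each value.

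Stab2 (ENSRNOG00000038948, rn6 chr7:27369853-27552078, minus strand) encodes stabilin-2, the main clearance receptor for hyaluronan in the sinusoid. It stood at 1.36, 2.33, 3.13, 2.60 and 2.51 TPM in SD samples 1 to 5. The EHBR samples had 4.31, 6.15, 5.77, 5.35 and 5.13 TPM. SD sample 1 was the lowest of all, and EHBR sample 1 was the lowest of its strain but still above every SD sample. The means were 2.39 ± 0.646 and 5.34 ± 0.700 TPM (SD, n = 5 each). The log2 difference was 0.92 (SE 0.16, limma adjusted p = 0.00673), from 142 to 546 reads per sample.

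Stab1 (ENSRNOG00000018434, rn6 chr16:7222067-7250924, minus strand) encodes stabilin-1, a related scavenger receptor also found on some macrophages. It had the lowest mean level of the 9 in both strains, at 0.582, 1.32, 1.43, 0.952 and 0.930 TPM in SD samples 1 to 5. The EHBR values were 2.03, 2.48, 3.16, 2.32 and 1.89 TPM. Here too the strains did not overlap, and SD sample 1 was the lowest. Only 2 of 5 SD samples reached 1 TPM, so Stab1 was kept through its EHBR values, but it was also called when no filter was applied. The log2 difference was 0.73 (SE 0.16, limma adjusted p = 0.0182), and the means were 1.04 ± 0.338 and 2.38 ± 0.494 TPM (SD, n = 5 each). Stab1 rested on as few as 50 reads, in SD sample 1, which have a 95% exact Poisson interval of 37.1 to 65.9, which covers counting error only. Without EHBR sample 2 the limma adjusted p of Stab1 was 0.0541, and without EHBR sample 3 it was 0.0546.

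Lyve1 (ENSRNOG00000026902, rn6 chr1:175663266-175676699, minus strand) encodes a hyaluronan receptor shared by sinusoidal and lymphatic endothelium and some macrophages. SD samples 1 to 5 had 18.7, 22.2, 20.4, 19.1 and 18.8 TPM. EHBR samples 1 to 5 had 26.0, 33.3, 36.4, 26.8 and 21.3 TPM. EHBR sample 5 lay within the SD range and the other 4 EHBR samples lay above it. The log2 difference of 0.49 (SE 0.14) was not called in the pooled fit, with a limma adjusted p of 0.0668. Without EHBR sample 5 it was called (adjusted p = 0.0252), and the means with all samples were 19.9 ± 1.47 and 28.8 ± 6.04 TPM (SD, n = 5 each).

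Of the receptors of VEGF, Kdr was called and Flt1 was not. Kdr (ENSRNOG00000046829, rn6 chr14:34727623-34787183, plus strand) encodes VEGFR2, the main signalling receptor for VEGF-A on endothelium. Its level was 6.68, 8.26, 9.49, 8.86 and 7.56 TPM in SD samples 1 to 5 and 12.2, 15.3, 14.5, 13.3 and 11.8 TPM in EHBR samples 1 to 5. Every EHBR sample was above every SD sample. The means were 8.17 ± 1.10 and 13.4 ± 1.48 TPM (SD, n = 5 each), a log2 difference of 0.66 (SE 0.12, limma adjusted p = 0.00916). The Kdr call was lost in upper-quartile FPKM, after quantile normalization, after centring and with the length trend removed (adjusted p = 0.0593, 0.0601, 0.0755 and 0.162).

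Flt1 (ENSRNOG00000000940, rn6 chr12:9034308-9205905, plus strand) encodes VEGFR1, which binds VEGF-A tightly and can act as a decoy. SD samples 1 to 5 had 1.06, 1.58, 1.61, 1.87 and 1.38 TPM, and EHBR samples had 2.30, 2.94, 2.26, 2.42 and 2.38 TPM. The samples of the strains did not overlap. The ratio of means, 1.64, equalled that of Kdr to 3 digits, but the log2 difference of 0.48 (SE 0.13) did not pass the test (limma adjusted p = 0.0561). Flt1 lies low on the scale, at 1.50 ± 0.302 and 2.46 ± 0.277 TPM (SD, n = 5 each) with 82 to 192 reads per sample. With a pseudocount of 5 in place of 1 it was called.

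Tek (ENSRNOG00000008587, rn6 chr5:113725717-113852799, plus strand) encodes TIE2, the angiopoietin receptor. Its values were 1.50, 2.35, 3.05, 2.57 and 1.84 TPM in SD samples 1 to 5, and 2.40, 2.94, 3.28, 3.55 and 2.75 TPM in EHBR samples 1 to 5. EHBR sample 1 and SD samples 3 and 4 were among those in the shared part of the ranges, and the log2 difference was 0.30 (SE 0.16, limma adjusted p = 0.296).

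Cdh5 (ENSRNOG00000013324, rn6 chr19:1023683-1074365, minus strand) encodes VE-cadherin, the adhesion molecule of endothelial junctions. SD samples 1 to 5 had 7.16, 7.49, 6.34, 6.61 and 7.07 TPM, and EHBR samples had 7.98, 9.77, 10.5, 11.5 and 8.05 TPM. The strains did not overlap, with EHBR samples 1 and 5 close to the SD range. The log2 difference of 0.40 (SE 0.13) did not pass the test (limma adjusted p = 0.0930). Eng (ENSRNOG00000050190, rn6 chr3:11679530-11717485, plus strand) encodes endoglin, a co-receptor for BMP9 and other ligands of the transforming growth factor family. It was the most abundant marker in both strains and nearly level between them, at 30.4, 30.6, 32.0, 30.4 and 27.8 TPM in SD and 30.6, 36.5, 38.8, 31.8 and 32.5 TPM in EHBR. Its log2 difference was 0.16 (SE 0.09, limma adjusted p = 0.351), about that of the median kept gene, 0.15.

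**Figure D2:**
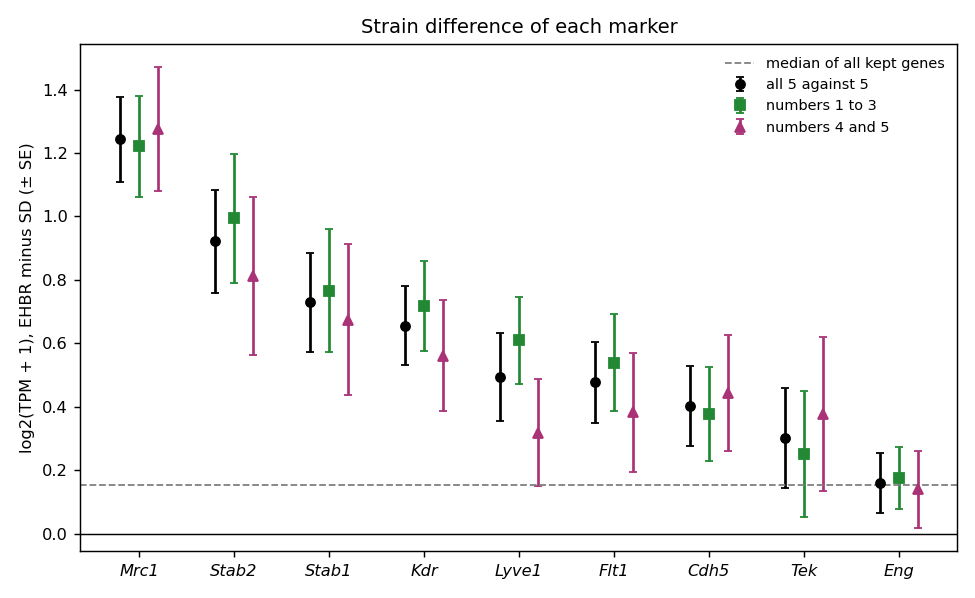
Difference on the log2(TPM + 1) scale, EHBR minus SD, for each marker with its standard error, over all 10 samples (circles), within numbers 1 to 3 (squares) and within numbers 4 and 5 (triangles). The dashed line is the median of all kept genes, 0.15, and the markers run from 1.24 for Mrc1 to 0.16 for Eng.

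The order of the levels, which TPM allows since it is per gene length, was Eng, Lyve1, Kdr, Cdh5, Mrc1, Stab2, Tek, Flt1 and Stab1 from high to low in SD liver. In SD, Kdr and Cdh5 overlapped, as did Stab2 and Tek, Tek and Flt1, and Flt1 and Stab1. In EHBR liver Mrc1 stood above Cdh5 in the order, though their samples overlapped, as did those of Eng and Lyve1, Kdr and Mrc1, Tek and Flt1, and Flt1 and Stab1. The 9 markers together summed to 72.1 to 82.1 TPM in SD and 96.7 to 128.9 TPM in EHBR samples. SD sample 1 was the lowest of its strain in 6 of 9 markers and the highest for Mrc1. EHBR sample 1 was the lowest of its strain in 5 of 9. Without SD sample 1 the same 4 markers were called, against 289 of 11083 kept genes called higher.

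Ratios between markers within a sample do not change when all values of that sample are multiplied by a constant, though they can differ between the deposited TPM and FPKM. Those given here were chosen after the values were seen and are a description. The ratio of Stab2 to Stab1 was 2.34 ± 0.394 in SD and 2.29 ± 0.339 in EHBR (SD, n = 5 each). That of Kdr to Flt1 was 5.54 ± 0.611 and 5.47 ± 0.557. Neither pair of receptors differed in its ratio beyond the spread. Against Eng, the ratio of Mrc1 was 0.145 ± 0.0140 in SD and 0.346 ± 0.0326 in EHBR, that of Stab2 was 0.0789 ± 0.0206 and 0.157 ± 0.0121, and that of Kdr was 0.270 ± 0.0304 and 0.395 ± 0.0256. These 3 ratios against Eng did not overlap between strains. The ratio of Lyve1 to Eng, 0.657 ± 0.0446 in SD and 0.841 ± 0.11 in EHBR, did overlap. In FPKM the ratio of Stab2 to Stab1 was 2.61 ± 0.702 in SD and 2.65 ± 0.437 in EHBR, that of Stab2 to Eng was 0.0948 ± 0.0243 and 0.182 ± 0.0140, and that of Lyve1 to Eng was 0.705 ± 0.0410 and 0.884 ± 0.116. The 6 ratios above overlapped, or did not, as in TPM. The ratio of Mrc1 to Kdr overlapped in TPM, at 0.545 ± 0.112 in SD and 0.878 ± 0.107 in EHBR. In FPKM it did not overlap, at 0.547 ± 0.112 and 0.883 ± 0.107. That of Stab2 to Kdr, 0.288 ± 0.0521 in SD and 0.398 ± 0.0287 in EHBR in TPM, did not overlap in either unit.

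Promoter sequences are shown for the called markers, since these genes differed together. RefSeq's table for the build GRCr8 held promoters of 7 of the 10 markers. Each stretch is the 250 bases before the start of the gene, on the gene's strand, and capitals mark the letters GGAA or their reverse complement TTCC, the core read by ETS factors, which act in endothelial gene expression. The stretches lie at chr17:82157475-82157724 (Mrc1, plus strand), chr7:23320563-23320812 (Stab2, minus), chr16:6367360-6367609 (Stab1, minus) and chr14:32571813-32572062 (Kdr, plus).
Mrc1: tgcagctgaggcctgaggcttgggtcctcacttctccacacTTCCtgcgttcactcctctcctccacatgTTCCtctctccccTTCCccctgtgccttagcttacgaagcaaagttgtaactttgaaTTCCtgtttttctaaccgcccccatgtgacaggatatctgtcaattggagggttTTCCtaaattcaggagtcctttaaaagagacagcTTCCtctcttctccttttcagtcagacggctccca
Stab2: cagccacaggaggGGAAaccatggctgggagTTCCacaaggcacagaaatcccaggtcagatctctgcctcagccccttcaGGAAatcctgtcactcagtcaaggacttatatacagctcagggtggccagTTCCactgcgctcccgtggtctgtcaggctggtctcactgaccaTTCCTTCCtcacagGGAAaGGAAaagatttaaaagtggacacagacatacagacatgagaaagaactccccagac
Stab1: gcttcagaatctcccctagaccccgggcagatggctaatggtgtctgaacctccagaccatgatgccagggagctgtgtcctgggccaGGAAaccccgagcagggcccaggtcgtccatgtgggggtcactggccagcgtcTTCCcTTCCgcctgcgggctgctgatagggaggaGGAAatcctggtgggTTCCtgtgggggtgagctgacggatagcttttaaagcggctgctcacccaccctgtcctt
Kdr: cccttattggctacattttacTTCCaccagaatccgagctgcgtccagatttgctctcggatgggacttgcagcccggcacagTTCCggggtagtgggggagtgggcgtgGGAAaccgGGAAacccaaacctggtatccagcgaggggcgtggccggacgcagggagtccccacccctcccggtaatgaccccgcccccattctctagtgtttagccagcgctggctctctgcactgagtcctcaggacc
The core occurred 8 times before Stab2, 6 times before Mrc1, 5 times before Stab1 and 4 times before Kdr. Of 33469 promoters in the table, 93.2% held it at least once, with a mean of 2.96 copies, and 1.5% held it at least as often as Stab2, 9.3% as Mrc1, 19.0% as Stab1 and 34.7% as Kdr. The 3 other promoters, of Lyve1, Eng and Flt1, held it 5, 3 and 3 times. The longer form AGGAAG, which contains the core, or its reverse complement was in 5 of 7 marker promoters and 29.5% of all. Of the called markers, Mrc1 and Stab2 had it and Stab1 and Kdr did not. The uncalled Lyve1, Eng and Flt1 all had it. The letters AGATAA, read by factors such as GATA4, were in 0 of 7 and 10.3% of all on either strand. A match of letters is a description only.

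The comparison was repeated within the sets of numbers, from 1 fit with a strain difference for each. Within numbers 1 to 3, 5 of 9 markers were called higher (Stab1, Stab2, Kdr, Mrc1 and Lyve1), against 4.84% of kept genes. Within numbers 4 and 5, 3 of 9 were called higher (Stab2, Kdr and Mrc1), against 19.6% of kept genes. The median kept gene differed by 0.07 within numbers 1 to 3 and by 0.27 within numbers 4 and 5, and the median marker by 0.61 and 0.44. The Mrc1 difference was 1.22 and 1.28 (limma adjusted p = 0.00237 and 0.00562) and that of Stab2 was 0.99 and 0.81 (adjusted p = 0.0196 and 0.0440). Stab1 gave 0.77 and 0.67 (adjusted p = 0.0456 and 0.0668), Kdr 0.72 and 0.56 (adjusted p = 0.0172 and 0.0453), and Lyve1 0.61 and 0.32 (adjusted p = 0.0298 and 0.187). The differences of Flt1 were 0.54 and 0.38, those of Cdh5 0.38 and 0.44, those of Tek 0.25 and 0.38, and those of Eng 0.18 and 0.14, none of them called. These fits share the spread of all 10 samples. Fitted on their own samples alone, numbers 1 to 3 called Mrc1, Stab2, Kdr and Lyve1 but not Stab1 (adjusted p = 0.0854). Numbers 4 and 5 alone called Mrc1 but not Stab2 (0.0539) or Kdr (0.0899). Of 11083 kept genes, the separate fits called 482 higher for numbers 1 to 3 and 460 for numbers 4 and 5. Between the sets, the strain difference of the 9 markers changed by -0.29 (Lyve1) to 0.12 (Tek), with limma adjusted p of 0.470 to 0.922. No marker and 0.271% of kept genes were called for this change, and no marker had an unadjusted p under 0.05. Within a strain, the log2 difference of numbers 4 and 5 from 1 to 3 ran from -0.39 (Lyve1 in EHBR) to 0.15 (Stab2 in SD). With a term for the sets in the fit, 7 of 9 markers were called, Lyve1, Flt1 and Cdh5 being added, against 13.6% of kept genes.

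Scaling moved these counts. The calls over all kept genes, 423 higher and 181 lower in TPM, became 193 and 266 when each sample was centred on its median gene, and the median kept gene moved from 0.15 to -0.02. They were 307 and 215 in the deposited FPKM, 216 and 260 in upper-quartile FPKM, and 314 and 290 after quantile normalization. Of the 9 markers, 4 were called higher in FPKM (2.77% of kept genes), Mrc1, Stab2, Stab1 and Kdr, and the same 4 by voom on the reads recovered from the values (2.73%). Without Kdr, 3 were called after quantile normalization (2.83%). Mrc1 and Stab2 alone were called after centring (1.74%) and in upper-quartile FPKM (1.95%). Relative to the median gene, the differences were 1.09 for Mrc1, 0.77 for Stab2, 0.58 for Stab1, 0.50 for Kdr, 0.34 for Lyve1, 0.32 for Flt1, 0.25 for Cdh5, 0.15 for Tek and 0.01 for Eng. Eng turned to -0.01 after centring.

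**Figure D3:**
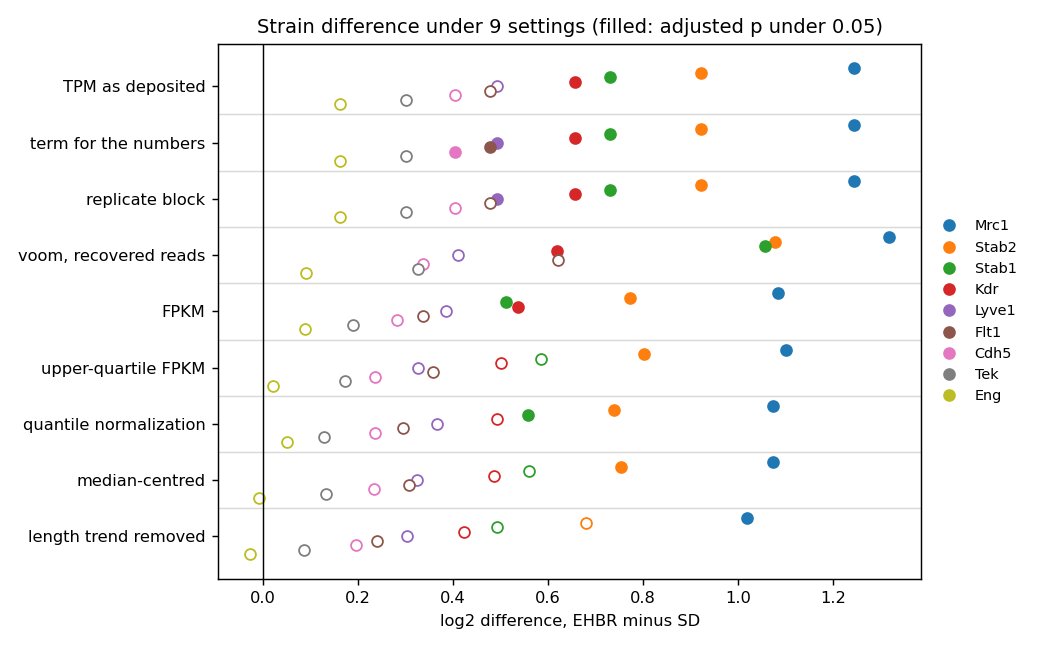
Log2 difference, EHBR minus SD, of each marker under 9 settings of the test, with filled circles for an adjusted p under 0.05. Mrc1 is filled in all 9 settings shown, and Eng lies lowest in each and below 0 in the last 2.

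The markers are long genes, with 3035 to 7605 bases, and long genes as a group were higher in EHBR. The median difference was 0.22 over 1064 kept genes of at least 5000 bases and 0.04 over 3158 under 1500 bases. Set against the other samples, long genes were low in SD samples 4 and 5, where their median deviation less that of short genes was -0.36 and -0.53. The other 8 samples ran from -0.09 to 0.29. Among the 3138 kept genes in the markers' length range, 4.05% were called higher and the median was 0.22, against 4 of 9 and 0.49 for the markers. With a trend on length removed from each sample, Mrc1 was called (1.02, limma adjusted p = 0.00638) and the other 8 were not, against 2.24% of kept genes, and Eng turned to -0.03. With the term for the sets added, Stab2 and Kdr were called as well, against 5.13% of kept genes. What part of the markers' difference goes with length was not tested further.

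**Figure D4:**
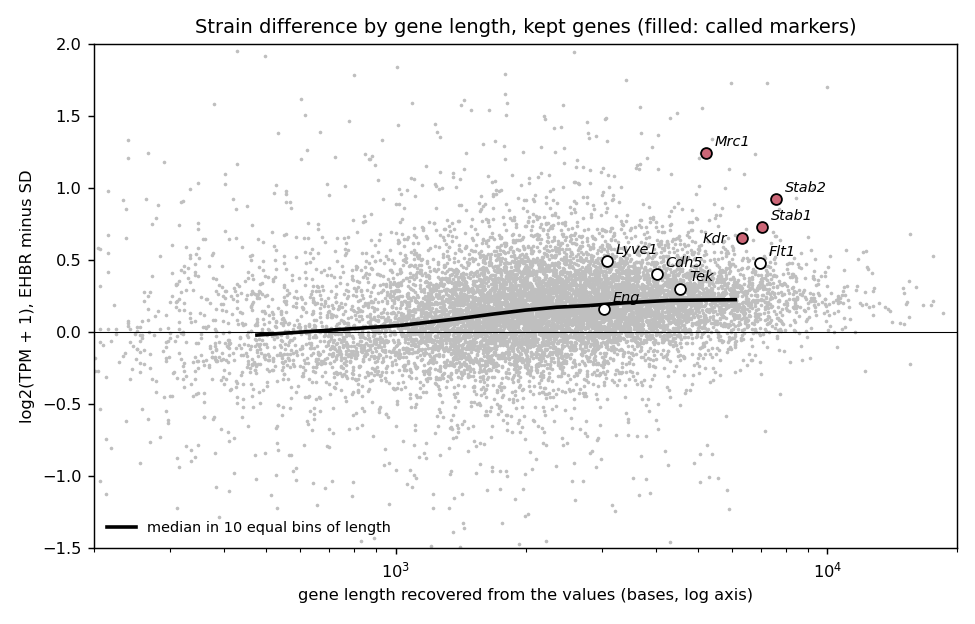
Strain difference on the log2(TPM + 1) scale against gene length in bases on a log axis, for kept genes (grey), their median in 10 bins of length (line) and the 9 markers (circles, filled where called). The median line climbs with length to 0.22, and Mrc1, Stab2, Stab1 and Kdr lie above it. Of 11044 genes with a length, 232 lie outside the axes.

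Other genes of the same cells were read from lists chosen with earlier results known. Of 18 further sinusoidal endothelial markers 16 were found and 15 kept. Ehd3 and Tspan7 were called higher and none lower, against 3.82% of kept genes called higher and 1.63% lower. The list median was 0.43 beside 0.15 for all kept genes. Ehd3, an endocytic membrane trafficking protein, stood at 18.7 ± 4.56 TPM in SD and 33.8 ± 5.44 in EHBR (SD, n = 5 each), a difference of 0.83 (limma adjusted p = 0.0125) that was also called after centring (0.66, adjusted p = 0.0121). Tspan7, a tetraspanin, stood at 49.0 ± 3.71 and 72.7 ± 3.95 TPM (0.56, adjusted p = 0.00285), but was not called after centring (0.39, adjusted p = 0.181). The 13 others were not called. The list summed to 143 to 191.7 TPM in SD and 217.8 to 261.3 in EHBR, with no overlap, and 13 of 15 differences were above 0. Tspan7 and Ehd3, the most abundant genes of the list by mean TPM, weigh heavily in these sums. The separation of the sums therefore does not show that the other genes were higher.

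Genes shared by endothelium of most vessels had a median of 0.22, nearer that of all kept genes. Of 25 such genes 19 were kept and 0 were called in either direction. Over all kept genes 3.82% were called higher and 1.63% lower, and 0 calls among 19 genes is near these shares. Of their differences, 17 of 19 were above 0, beside 13 of 15 in the sinusoidal list. The median over all kept genes was itself above 0, at 0.15. Their sums, 126.3 to 137.9 TPM in SD and 124.9 to 134.9 in EHBR, overlapped. A single gene with a lower level in EHBR weighs most in these sums, so their overlap does not show that the other genes were level. The most abundant gene in these sums, S1pr1, a sphingosine-1-phosphate receptor, was below SD in all 5 EHBR samples. Its level was 56.9 ± 5.68 TPM in SD and 43.0 ± 6.15 TPM in EHBR (SD, n = 5 each; -0.40, limma adjusted p = 0.0735). S1pr1 was called lower within numbers 1 to 3 (-0.57, adjusted p = 0.0218) but not within 4 and 5 (-0.15, adjusted p = 0.471). It was also called lower after centring (-0.57, adjusted p = 0.0302), in FPKM (-0.49, adjusted p = 0.0232) and with the term for the sets, where Ptprb, an endothelial phosphatase chosen after its values were seen, was called higher.

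Of the ligands and other members of VEGF and angiopoietin signalling, 12 of 17 were kept, with a median of 0.29. In either direction 0 were called, against 3.82% of kept genes called higher and 1.63% lower. Vegfa, the ligand of Kdr and Flt1, was at 37.8 ± 15.8 TPM in SD and 38.1 ± 10.7 in EHBR (SD, n = 5 each). Flt4, the receptor for VEGF-C, was at 2.38 ± 0.815 and 4.14 ± 0.813 TPM (0.62, limma adjusted p = 0.0783), and was called higher within numbers 1 to 3 (0.86, adjusted p = 0.0363) but not within 4 and 5 (0.27, adjusted p = 0.454). Epas1, which encodes HIF-2 alpha, was at 39.8 ± 10.1 and 54.2 ± 11.3 TPM, with overlap (0.45, adjusted p = 0.220). Epas1 was lower in numbers 4 and 5 of both strains, and its difference was called within each set, at 0.40 and 0.53 (adjusted p = 0.0169 and 0.00882). Adamts1 was at 2.74 ± 1.06 TPM in SD and 5.83 ± 1.85 in EHBR, with overlap (0.87, limma adjusted p = 0.0545). It too was called within each set, at 0.89 and 0.83 (adjusted p = 0.0274 and 0.0378). Both angiopoietin genes Angpt1 and Angpt2 fell under the filter.

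The genes that work with endoglin held 20 names, of which 16 were kept, with a median of 0.14. Of these 0 were called, against 3.82% of kept genes called higher and 1.63% lower. Gdf2, which encodes BMP9, was at 21.7 ± 9.90 and 21.6 ± 4.61 TPM. Within numbers 1 to 3 its difference was -0.21 (28.8 TPM in SD and 24.8 in EHBR, limma adjusted p = 0.332). Within numbers 4 and 5 it was 0.59 (11.0 TPM in SD and 17.0 in EHBR, adjusted p = 0.0215). Tgfbr2, Smad4 and Acvr2a were also called higher within numbers 4 and 5 (adjusted p = 0.0307, 0.0443 and 0.0488), as were 19.6% of kept genes. The change of the Gdf2 difference between the sets was not called (adjusted p = 0.0895). Smad9 was listed at 0 in every sample. Id3, a target of BMP signalling, was at 53.4 ± 10.8 TPM in SD and 37.1 ± 5.56 in EHBR (-0.50, limma adjusted p = 0.0892).

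Of other scavenger receptors and genes of hyaluronan handling, 13 of 21 names were kept. Over all kept genes, 3.82% were called higher and 1.63% lower. Msr1, scavenger receptor A of macrophages and endothelium, was higher at 4.52 ± 0.711 and 7.05 ± 0.717 TPM (SD, n = 5 each; 0.55, limma adjusted p = 0.0313). Asgr1, the asialoglycoprotein receptor of hepatocytes, was lower at 544 ± 21.2 and 434 ± 6.72 TPM (-0.33, adjusted p = 0.0180). After centring neither was called, at 0.38 for Msr1 (adjusted p = 0.156) and -0.50 for Asgr1 (adjusted p = 0.0592). Msr1 was called within numbers 4 and 5 (0.65, adjusted p = 0.0342) but not within 1 to 3 (0.48, adjusted p = 0.0916). It was also not called without any 1 of EHBR samples 2 to 5 or SD samples 1 or 5 (adjusted p = 0.054 to 0.0933), nor Asgr1 without EHBR sample 2 or 3 (0.0645 and 0.0554). The 11 others were not called. Of 4 kept markers of pericentral endothelium, Fabp4, a fatty acid binding protein of capillary endothelium and fat cells, was called higher. It stood at 5.92 ± 3.12 and 15.5 ± 1.37 TPM (1.39, adjusted p = 0.0165), and SD samples 1 and 3 were lowest at 3.08 and 2.27 TPM. Fabp4 was called within numbers 1 to 3 (1.79, adjusted p = 0.00412) but not within 4 and 5 (0.80, adjusted p = 0.0958), in FPKM (1.04, adjusted p = 0.0623) or after centring. Of 4 kept periportal markers Msr1 was called, and of 7 kept genes of large vessels and lymphatics 0 were, with medians of 0.41 and 0.17.

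Stab1, Mrc1 and Lyve1 are also expressed by some macrophages. Of 18 Kupffer cell and macrophage markers 14 were kept, and 1, Msr1, was called higher, with a median of 0.26. Over all kept genes, 3.82% were called higher. Clec4f, a C-type lectin of Kupffer cells, was at 90.7 ± 6.96 TPM in SD and 107 ± 13.6 in EHBR (SD, n = 5 each; 0.23, limma adjusted p = 0.224). The summed list ran from 551.8 to 671.8 TPM in SD and from 548 to 1046 in EHBR, and none of its genes was at 0 in all samples. Marco, another scavenger receptor, reached 117 TPM in EHBR sample 4 against 34.5 to 74.2 in the other EHBR samples. Without EHBR sample 4 the same number of sinusoidal markers, 4, was called, against 283 of 11083 kept genes called higher. The part of macrophages in the marker differences was not tested.

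**Figure D5:**
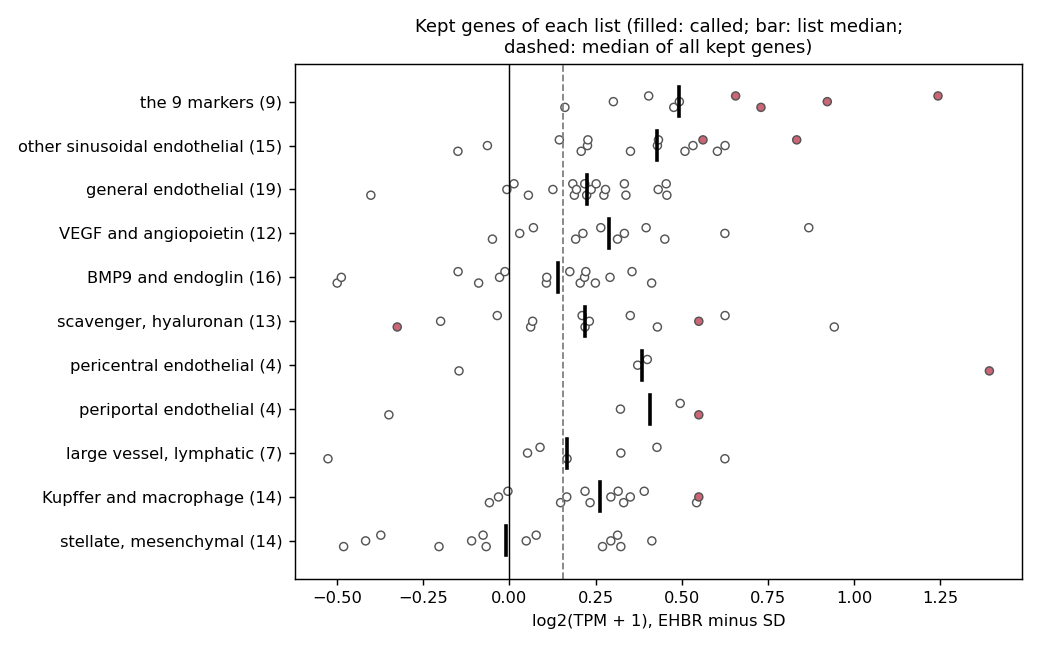
Log2(TPM + 1) difference, EHBR minus SD, of every kept gene in the 9 markers and 10 related lists, with the number of genes in brackets, filled points for called genes and a bar at each median. The markers have a median of 0.49 and the other sinusoidal genes 0.43, against 0.22 for general endothelial genes and 0.15 for all kept genes (dashed).

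The 5 kept genes whose log2 levels were most like the mean standardized level of the markers over the 10 samples were Kit, Clec1b, Snx8, Galk2 and Fam13a. Their Pearson correlations were 0.97, 0.96, 0.95, 0.95 and 0.95, a description over samples that share the strain difference. For deviations from the strain means they were 0.84, 0.85, 0.73, 0.72 and 0.78. Kit, a receptor tyrosine kinase that lies near Kdr on chromosome 14, was kept through its EHBR values, with 0 of 5 SD samples at 1 TPM. It was at 0.746 ± 0.152 TPM in SD and 1.30 ± 0.141 in EHBR (SD, n = 5 each; limma adjusted p = 0.0735). Clec1b, a C-type lectin of sinusoidal endothelium and platelets, was at 3.21 ± 0.589 and 4.97 ± 0.657 TPM (adjusted p = 0.0601). Fam13a rose from 2.55 ± 0.937 to 6.87 ± 1.50 TPM (adjusted p = 0.00916). Its SD sample 1 was the lowest of all 10, as for Stab1, Stab2, Kdr, Lyve1, Tek and Flt1, and for Kit, Clec1b and Snx8.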

How the data were processed

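Per the labels' protocols, liver RNA was poly(A)-selected and libraries kept strand. Tools listed in the submitters' processing notes are featureCounts 1.6.3, HISAT2 2.1.0, Trimmomatic 0.38 and FastQC 0.11.7, with the build rn6. The strand setting of the counting is not stated, and genes that overlap on opposite strands have uncertain values. The authors deposited TPM values, FPKM values and upper-quartile FPKM values, with 0 unused sample columns. For Stab1, Stab2 and Lyve1 the deposited TPM is not a rescaling of the FPKM, with log2 ratios of -0.39 to 0.04 over these genes and samples, and the reason is not stated.

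The test was limma 3.58.1 with trend in R 4.3.3 on log2(TPM + 1), two-sided, with Benjamini-Hochberg adjustment over all kept genes. Markers were read from that fit. Gene lengths and whole reads were recovered from upper-quartile FPKM for 18036 genes within 0.0002 reads, and at least 99.98% of the reads that FPKM implies were found. These reads give depths and an added test with voom, which called 301 genes higher and 197 lower, and 4 markers. The steps were tested on simulated data. Tables and figures used Python 3.11.15 with matplotlib 3.10.9, scipy 1.17.1, pandas 2.3.3 and numpy 2.4.6.

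The markers, the division into numbers 1 to 3 and 4 and 5, and the 15 other lists were chosen with earlier results of these data known. The genes named are all 10 markers, up to 3 called genes of each list by adjusted p, or its most abundant gene where none was called, and the 5 genes most like the markers. The gene this rule takes from the bile duct list is not reported here. Vegfa, Flt4, Adamts1, Gdf2, Tgfbr2, Smad4, Acvr2a, Id3, Hyal1, Clec4f, Marco, Hba-a2, Alas2, Ptprb, Angpt1, Angpt2 and Smad9 were added after their values were seen. Alternatives were other units, scalings, pseudocounts, filters and variance fits, the sets of numbers, the replicate block, an exact permutation test and leaving out each sample. Promoters came from RefSeq on GRCr8, and gene coordinates are those of the deposited tables on rn6. No genome was used here.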

Additional observations from a re-analysis of the deposited data

Results flagged for a closer look

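In each strain, the values of 24 named genes were screened for a sample far from the other 4, a screen that chance passes in about 1 in 20 groups of the 48 screened. Among the markers, Flt1 in EHBR sample 2 was singled out, at 2.94 TPM against 2.42 for the next. Among the other named genes, Id2, a target of BMP signalling, reached 108.4 TPM in SD sample 1 against 56.3 for the next. Plvap, a protein of endothelial diaphragms, reached 21.7 TPM in EHBR sample 4 against 11.1 for the next. Cd74, the invariant chain of antigen-presenting cells, reached 376.3 TPM in EHBR sample 4 against 130.2 for the next. Stab1, Stab2, Mrc1 and Kdr had no such sample in either strain.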

How the results depend on the processing

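The count of 4 markers called higher was 7 with a term for the sets, 2 after median centring, in upper-quartile FPKM and with a mean of at least 5 TPM (5 markers tested), 1 with the length trend removed and 1 in numbers 4 and 5 only. It ranged from 3 to 5 when each sample was left out. The exact permutation test, whose smallest p is 0.00794, called 0 genes higher, 0 lower and 0 markers after adjustment, with 2202 genes at an unadjusted p under 0.05. Eng turned to -0.027 with the length trend removed, also with the term for the sets, and to -0.0087 after centring.

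Over all kept genes, 423 called higher became 247 with the length trend removed, 193 after centring, 1506 with the term for the sets, 216 in upper-quartile FPKM, and 243 (without EHBR sample 2) to 439 without each sample, with 276 and 269 without EHBR samples 1 and 3. The 181 called lower became 601 with the length trend and the term, a combination added after the data were seen, 290 with the length trend, 112 in numbers 4 and 5 only, 290 after quantile normalization, 372 with the term, and 135 to 179 without each sample. The 30 genes whose strain difference changed between the sets were 14 in FPKM, 52 with a pseudocount of 0.1 and 12 to 52 without each sample, and 0 markers throughout. The causes were not tested.

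The replicate numbers were not taken as a pairing, since the labels do not say that they mark one. Deviations of same-numbered samples correlated at 0.07 to 0.29, with 4 of 5 pairs over 0.1, and 3 of 5 SD samples correlated best with their own number. With the number as a replicate block, 639 genes were called higher and 222 lower, with 5 markers higher, Lyve1 being added, against 5.77% of kept genes. Depth limits Stab1, Flt1 and Tek most.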

Other observations

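Outside the endothelium, genes of red blood cells were the list with the highest median, 0.70 over 8 kept genes. Slc4a1, the anion exchanger of the red cell membrane, was called higher in EHBR, also after centring. Its level was 1.22 ± 0.253 TPM in SD and 2.64 ± 0.500 TPM in EHBR (SD, n = 5 each; 0.71, limma adjusted p = 0.0121). The 7 others were not called, and over all kept genes 3.82% were called higher. Hba-a2, an alpha globin gene, was at 810.2, 828.5 and 731.9 TPM in EHBR samples 1 to 3 and at 326.6 and 370.6 TPM in samples 4 and 5, against 230.6 to 362.8 TPM in SD. Its strain difference was 1.52 within numbers 1 to 3 (adjusted p = 0.000379) and -0.02 within numbers 4 and 5. Alas2, the erythroid enzyme of haem synthesis, was at 3.25 ± 1.04 and 5.68 ± 1.46 TPM (0.66, adjusted p = 0.0981), and was called within numbers 1 to 3 (1.01, adjusted p = 0.0214) but not within 4 and 5 (0.14, adjusted p = 0.713).

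None of the 14 kept stellate and mesenchymal genes, 4 bile duct genes, 5 leukocyte genes, 4 platelet genes or 11 hepatocyte genes was called. Over all kept genes, 3.82% were called higher and 1.63% lower. The medians of these lists were -0.01, -0.07, -0.48, 0.33 and 0.21. Outside the bile duct list, the most abundant were Ecm1 (115.6 ± 17.9 and 99.2 ± 2.89 TPM), Cd74 (122.5 ± 40.5 and 161 ± 121), Itga2b (5.97 ± 1.65 and 7.06 ± 0.899) and Alb (90150 ± 10450 and 110300 ± 5865). The leukocyte list summed to 78.4 to 178.2 TPM in SD and 100.3 to 390.2 TPM in EHBR.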
